A study of Mus musculus with 69 samples.

Results

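The Dlk1-Dio3 region is a cluster of imprinted genes on mouse chromosome 12, and its expression and chromatin accessibility were examined here in mouse embryonic stem cells (ESCs) that carry a lysine-to-arginine change in the histone variant H3.3. Of the 16263 genes in the table of mRNA-seq read counts, 7 were followed: Meg3, Rian, Mirg, AF357359, Mir3072, Dlk1 and Dio3. They were chosen because most of them were far lower in the mutants, so their difference between mutants and wild type is given as a description without a test. Every ATAC-seq peak on chr12:109430000-110300000 (mm10) was added, which gave 101 peaks over 6 lists, merged into 33 regions of the 89596 regions on chromosomes 1 to 19, X and Y.

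The study asked whether acetylation of lysine 27 on histone H3 is needed for the activity of enhancers. The wild type (WT) was J1, an ESC line of the 129S4/SvJae strain. Mut18 and Mut43 were H3.3K27R clones of it, in which CRISPR-Cas9 had changed lysine 27 to arginine at both H3f3a and H3f3b, the genes that encode H3.3. Each of the 3 lines gave 2 mRNA-seq and 2 ATAC-seq libraries, so each mutant line was a single clone. All lines were grown on feeder cells and then without feeders for a pair of passages before harvest. H3f3a stood at 10510 and 10937 normalized counts in WT and at 8436 to 9560 in the mutants, and H3f3b at 12378 to 12398 in WT and 11655 to 13556 in the mutants. These counts do not show the edited codon.

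Imprinted genes are expressed from only one parental chromosome. In this cluster Dlk1, Rtl1 and Dio3 code for proteins and are expressed from the paternal chromosome, while Meg3, Rian and Mirg are noncoding RNAs transcribed one after another from the maternal chromosome, with small nucleolar RNAs (snoRNAs) in the introns of Rian and microRNAs in and around Mirg. An intergenic stretch between Dlk1 and Meg3 is methylated on the paternal copy and acts as the imprinting control region. Maternal noncoding RNAs of this cluster are known to vary between ESC lines and to be silenced in some of them. J1 comes from an inbred strain and neither the counts nor the peaks separate parental alleles, so "maternal" and "paternal" below name the known mode of expression of a gene and not a measured allele.

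RefSeq places all 7 genes on the plus strand of GRCm38.p6, the same build as mm10. Dlk1 lies at chr12:109452485-109463336, Meg3 at chr12:109540996-109571729, Rian at chr12:109603945-109661716, Mirg at chr12:109734981-109749458 and Dio3 at chr12:110279230-110281097. AF357359, a snoRNA at chr12:109650709-109650738, lies in an intron of Rian, and Mir3072 at chr12:109747878-109747960 lies in an intron of Mirg. The reads of these short genes could therefore stem from their host transcripts. Their sequences in RefSeq are given here to show what these counts refer to, with the microRNA seeds (bases 2 to 8) in capitals. AF357359 has no capitals.
AF357359: atcatgacgacaaatttaattctgagatca
mmu-miR-3072-5p: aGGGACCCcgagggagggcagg
mmu-miR-3072-3p: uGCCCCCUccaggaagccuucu
No other mature mouse microRNA in the table of 1679 names carried either of these seeds. RefSeq lists 58 microRNA hairpins within the interval, 54 of them on the plus strand, with 113 mature microRNAs and 104 different seeds. Mir3072 was the only one of the 58 with a row in the count table, and an mRNA-seq library holds few mature microRNAs.

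The maternally expressed noncoding RNAs were lower in all 4 mutant libraries than in both WT libraries, with Meg3 and Rian lower to a nearly equal extent. Meg3, the first transcript of the maternal series, stood at 3048 and 3025 normalized counts in the WT libraries. In Mut18 it stood at 182 and 155, and in Mut43 at 141 and 162. The WT and mutant libraries did not overlap, and the mean of the mutants was 5.28% of WT, with a fitted log2 fold change of -4.24 (standard error, SE, 0.068). Rian, the host of the snoRNAs, reached 5861 and 5634 normalized counts in the WT libraries, against 307 and 340 for Mut18 and 290 and 288 for Mut43. The mean in the mutants was 5.33% of WT and the log2 fold change was -4.23 (SE 0.056). A normalized count is the read count divided by the effective library size and scaled to the mean library.

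The remaining maternal members had lower counts and the same order of groups. Mirg, the host of the microRNAs farthest along the series, was at 338 and 336 normalized counts in the WT libraries and at 9.01, 14.2, 12.2 and 16.2 in the mutants. Its mutant mean was 3.83% of WT, with a log2 fold change of -4.69 (SE 0.19). AF357359 had raw counts of 461 and 378 in WT against 25, 16, 25 and 18 in the mutants, and its log2 fold change was -4.26 (SE 0.17). Mir3072 had 14 and 18 raw counts across the WT libraries, 0 and 1 for Mut18 and 0 for both Mut43 libraries. Its pooled level in the mutants was 1.62% of WT, with an exact 95% interval of 0.0397 to 9.67% that covers counting error only. The residual shares of the maternal members thus lay between 1.62 and 5.33% of WT, and those of Meg3, Rian and AF357359 between 5.17 and 5.33%.

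**Figure D1:**
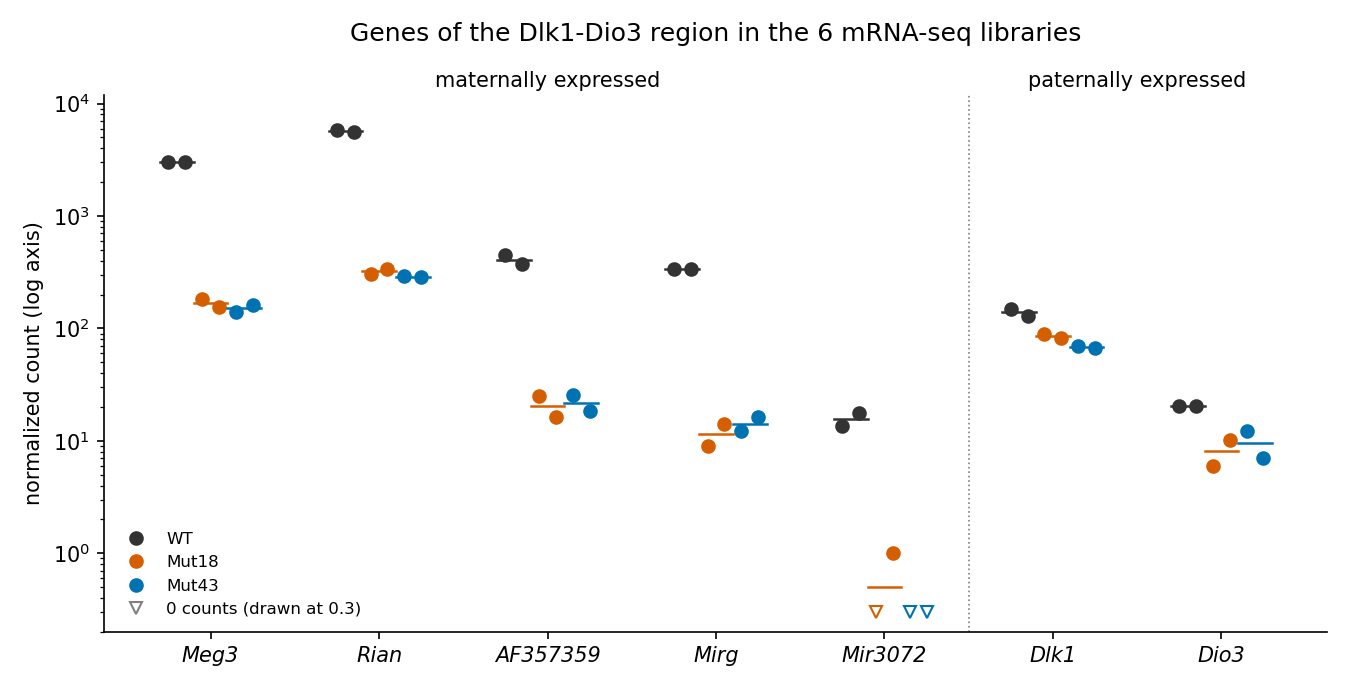
Normalized counts (log axis) of the 7 genes in each of the 6 mRNA-seq libraries, with points for libraries, short lines for the means of the 2 libraries of a line, and open triangles for 0 counts. The maternally expressed genes fell to a few percent of WT in both clones, while Dlk1 and Dio3 averaged 55.3 and 43.1% of WT.

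The paternally expressed genes were lower too, but by far less. Dlk1, a transmembrane protein of the Notch ligand family, was at 149 and 130 normalized counts in the WT libraries, at 90.1 and 81.9 for Mut18 and at 70.2 and 67.0 for Mut43. Every mutant library was below both WT libraries, the mutant mean was 55.3% of WT, and the log2 fold change was -0.85 (SE 0.14). Dio3, the deiodinase that inactivates thyroid hormone, was close to the limit of the filter on low counts, with 21 raw counts in each WT library, 6 and 10 for Mut18, and 12 and 7 for Mut43. Its mutant mean was 43.1% of WT and its log2 fold change was -1.20 (SE 0.35). Rtl1, a retrotransposon-derived protein whose gene lies antisense to several of the microRNAs, had raw counts of 10 and 8 in WT and 7, 9, 6 and 3 in the mutants. Its groups overlapped, and it did not pass the filter. Because the strand used in counting is not given in the sources used here, reads of Rtl1 and of the transcripts antisense to it cannot be told apart.

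All 7 members passed the filter on low counts. Mir3072 did so only through its WT libraries, and Mirg and Dio3 reached the limit in 3 and 2 of the 4 mutant libraries. In 7 of 7 members every mutant library was below both WT libraries, against 30.4% of the 14061 tested genes, and 6 of 7 were more than 2-fold lower with an adjusted p-value under 0.05 (edgeR, Benjamini-Hochberg), against 5.65% of tested genes. Dlk1 was the member under the 2-fold limit, and Dio3 missed the limit on the adjusted p under DESeq2, which left 5 of 7. These counts were fixed by the way the genes were chosen and carry no evidence. The clones and their common reference gave side by side log2 fold changes of -4.17 and -4.32 for Meg3, -4.15 and -4.31 for Rian, -4.85 and -4.55 for Mirg, -4.31 and -4.22 for AF357359, -0.70 and -1.03 for Dlk1, and -1.34 and -1.08 for Dio3, with Mut18 first and Mut43 second. Both comparisons share the WT libraries. The 2 replicates of a line were labelled as biological, and with 2 WT libraries all standard errors measure only the spread between these cultures. In bulk RNA, fewer expressing cells and less RNA per cell cannot be told apart.

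Levels were compared between genes as RPKM, the reads per kilobase of exon scaled to library size. In WT, Rian stood highest at 106 RPKM ± 2.98 (SD, n = 2), in the 95.9th percentile of all genes. Mirg had 17.2 ± 0.0594 and Meg3 15.6 ± 0.0855 RPKM, Dlk1 had 1.93 ± 0.186, and Dio3 had 0.730 ± 0.002. In the mutants Rian was still the highest at 5.68 ± 0.444 RPKM (SD, n = 4), but Dlk1 came next with 1.07 ± 0.147, then Meg3 with 0.821 ± 0.0873, Mirg with 0.659 ± 0.157 and Dio3 with 0.315 ± 0.101. Meg3 and Mirg, neighbours in this order, differed by less than their summed SDs in the mutants. AF357359 and Mir3072, at 30 and 83 bases, are shorter than a read pair, and their levels per length were not used. The order by RPKM rests on RefSeq exon lengths, 12957 bases for Meg3 and 4811 for Dlk1. The annotation used for counting was not given. In normalized counts Meg3, with a mutant mean of 160, stood above Dlk1 with 77.3.

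Ratios within a library do not depend on normalization. Rian had 1.92 and 1.86 reads per read of Meg3 in WT and between 1.69 and 2.2 in the mutants, so the WT values lay inside the range of the mutants. AF357359 had 7.68 and 6.58 reads per 100 reads of Rian in WT and 4.76 to 8.77 in the mutants, again with overlap. Mirg had 11.1 reads per 100 reads of Meg3 in both WT libraries and 4.95, 9.15, 8.63 and 10.0 in the mutants, all below WT and resting on 9 to 16 reads of Mirg each. The balance between the parental sets moved much more. Dlk1 had 4.90 and 4.31 reads per 100 reads of Meg3 in WT and 41.3 to 52.9 in the mutants. Summed over Meg3, Rian and Mirg, the maternal reads were 51.5 and 56.6 times those of Dlk1, Rtl1 and Dio3 in WT, and 4.83, 5.03, 5.01 and 6.05 times in the mutants.

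The direct comparison of Mut18 with Mut43 did not enter the choice of the genes and was tested. No member passed the test between the clones (edgeR quasi-likelihood F-test, adjusted over 14061 genes, n = 2 per line), while 46 of all genes, or 0.327%, did. For Meg3 the log2 fold change of Mut18 over Mut43 was 0.15, with a 95% interval from -0.08 to 0.38 and an adjusted p of 0.795. The interval for Rian ran from -0.01 to 0.34 around 0.16 (adjusted p = 0.629, edgeR). For Dlk1 the estimate was 0.33 with an interval from -0.02 to 0.67 (adjusted p = 0.622, edgeR). The less abundant genes left more room, with intervals from -1.01 to 0.42 for Mirg, from -0.70 to 0.54 for AF357359 and from -1.30 to 0.79 for Dio3. Of the 7 members, Rian and Dlk1 had all libraries of Mut18 above all of Mut43, and 38.5% of tested genes had libraries that did not overlap between the clones. The intervals of Meg3 and Rian reached at most 0.38 on the log2 scale, while the mutant means of these genes were 5.28 and 5.33% of the WT means. No interval could be fitted for Mir3072, which had 1 read in Mut18 and none in Mut43.

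The other genes of the table inside the interval were sparse and untested. The snoRNAs AF357425, AF357426, DQ267100 and DQ267102, which lie in introns of Rian like AF357359, had 12, 26, 15 and 23 reads in the WT libraries together and 1, 1, 2 and 3 in the 4 mutant libraries. As shares of WT these were 4.31, 1.99, 6.89 and 6.74%, with exact 95% intervals whose upper bounds lay between 12.1 and 29.6%. Dio3os, an antisense transcript beside Dio3, had 3 and 5 reads in WT and 0, 0, 5 and 0 in the mutants, so its groups overlapped.

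The genes beside the interval were examined next. Of 25 genes within 1 Mb on either side, 21 were tested, and none was called higher or lower beyond 2-fold when both clones were pooled (edgeR). In Mut43 alone Eml1 was called lower, with a log2 fold change of -1.17 (SE 0.24), as were 6.81% of all tested genes, and in Mut18 alone none was called. Their median log2 fold change was 0.00, as was that of all tested genes, and their range ran from -0.77 (Eml1) to 0.32 (Tecpr2). Without the 2-fold limit, 6 of the 21 had an adjusted p under 0.05 in the pooled comparison, against 48.0% of all tested genes. The 3 nearest tested genes on the Dlk1 side were Begain at -0.47, Wdr25 at -0.43 and Wars at 0.00. On the Dio3 side they were Ppp2r5c at 0.05, Dync1h1, the heavy chain of cytoplasmic dynein, at -0.04, and Hsp90aa1, a heat shock protein, at 0.21. On the rest of chromosome 12, 476 genes were tested, of which 6 were called higher and 38 lower, with a median of -0.04. Of all tested genes, 3.28% were called higher and 5.65% lower.

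**Figure D2:**
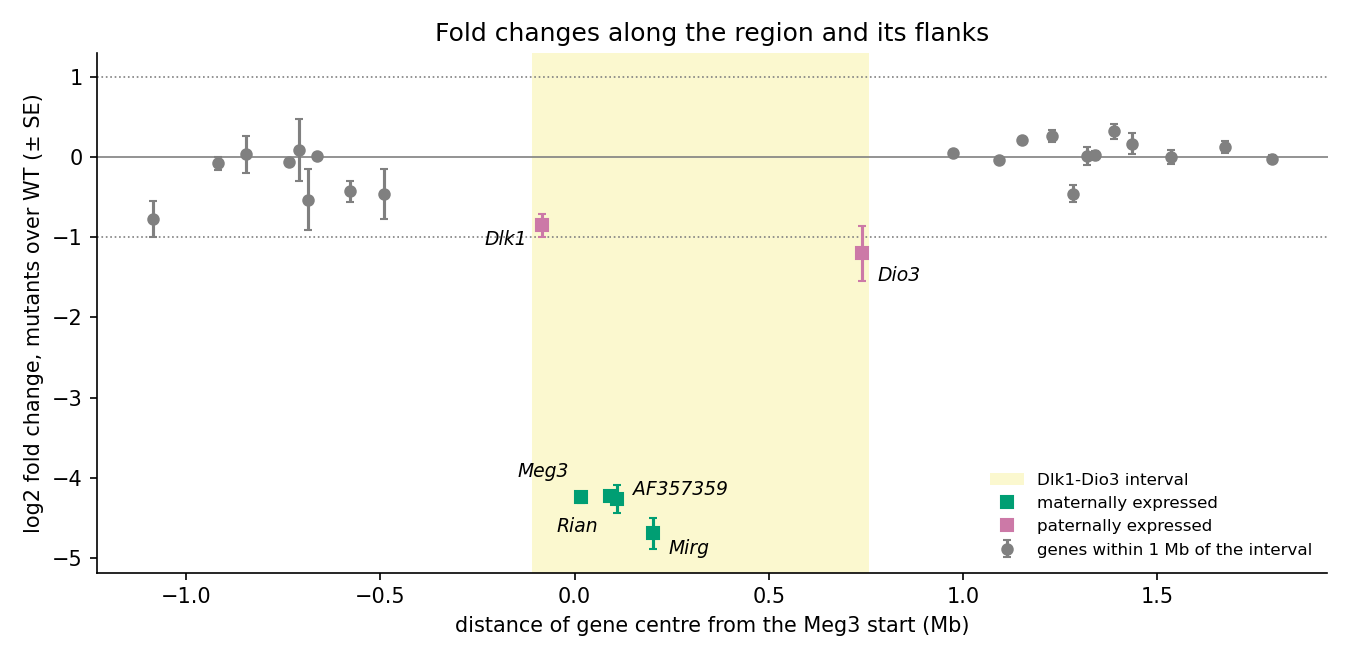
Fitted log2 fold change of mutants over WT (± SE, 2 WT and 4 mutant libraries) against the distance of a gene's centre from the Meg3 start in Mb, for 6 members and the 21 tested genes within 1 Mb of the shaded interval. The maternal members lie between -4.23 and -4.69, Dlk1 and Dio3 at -0.85 and -1.20, and the flanking genes between -0.77 and 0.32, with dotted lines at the 2-fold limits; Mir3072 is left out for its counts of 0.

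The markers of other cells were read beside these values. Of 14 genes that mark feeder fibroblasts, 12 were tested, 6 were called lower and none higher, against 5.65 and 3.28% of all tested genes. None of the 14 was at 0 in all libraries. Their summed level was 6336 to 7916 normalized counts in WT and 3526 to 5259 in the mutants, a mutant mean of 61.4% of WT. Their part in the result was not tested. Of the 6 called lower, 4 also differed more than 2-fold between the WT replicates, namely Col3a1, a fibrillar collagen (843 and 257 normalized counts), Col6a3 (212 and 51.9), Postn (288 and 111) and Dcn (39.0 and 15.7). The other 2, Fbln2 (725 and 711) and Prrx1 (91.8 and 98.0), were nearly equal in the WT replicates and averaged 40.1 and 40.2% of WT in the mutants. Between the clones, 2 of the 12 tested feeder markers passed the test (edgeR), against 0.327% of all tested genes. These were Col1a1 and Acta2, both lower in Mut43 than in Mut18. The 10 markers of ESC identity, among them Pou5f1, Nanog and Sox2, were all tested and none was called beyond 2-fold. Their sums were 62087 to 64756 in WT and 69096 to 72978 in the mutants. Their log2 fold changes ran from -0.27 (Pou5f1) to 0.72 (Zfp42). Without the 2-fold limit all of them but Sall4 had an adjusted p under 0.05 (edgeR), against 48.0% of all tested genes. Of 7 tested primitive endoderm markers Lama1 was called higher (log2 fold change 1.29) and Foxa2 lower (-3.21, SE 0.75). Foxa2 had 11 and 15 raw counts in WT and 2, 0, 1 and 2 in the mutants, and passed the filter only through its WT libraries. Of 7 tested trophoblast markers Hand1 was called higher (1.33). The summed primitive endoderm markers were at 2113 to 2942 normalized counts in WT and 2724 to 2791 in the mutants, and the mutant mean of the trophoblast markers was 91.5% of WT.

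Most imprinted genes elsewhere in the genome did not pass the 2-fold limit. Among 17 tested genes expressed from the maternal chromosome, 4 were called lower and none higher, with a median log2 fold change of -0.18. They were H19, a noncoding RNA beside Igf2 (-1.46, SE 0.086), Grb10, an adaptor that restrains growth signalling (-3.98, SE 0.067), Calcr, the calcitonin receptor (-2.90, SE 0.19), and Asb4 (-1.44, SE 0.34). Cdkn1c, a cell cycle inhibitor, had a value of -0.96 and Igf2r of -0.23. Among 21 tested genes expressed from the paternal chromosome, 4 were called lower, namely Peg13 (-3.39), Magel2 (-1.68), Nnat (-1.23) and Ndn (-1.20), and Sfmbt2 was called higher (1.04), with a median of -0.04. Igf2 stood at -0.02, Peg3 at -0.11 and Peg10 at 0.25. Over all tested genes 5.65% were called lower and 3.28% higher.

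Of 19 tested genes whose products act on the imprint of the region, 1 was called. Among all tested genes 3.28% were called higher and 5.65% lower. Dppa3, which protects methylation in the early embryo, was called higher (log2 fold change 1.85, SE 0.080) and none was called lower, with a median of 0.12. Zfp57, the zinc finger protein that binds methylated imprinting control regions, had a value of 0.14, its cofactor Trim28 of 0.15, Zfp445 of -0.28 and Setdb1 of -0.08. Dnmt3b, a de novo methyltransferase, reached -0.78 and Suz12, a subunit of Polycomb repressive complex 2, 0.80, both short of the 2-fold limit.

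The 5 genes whose profile over the 6 libraries was most like that of Meg3 were sought among 11072 genes outside the interval whose mean level was 50 normalized counts or more. The likeness was the root mean square difference of centred log2 levels, which was 0.12 between Rian and Meg3, 0.23 for Mirg and 0.25 for AF357359. Grb10, on chromosome 11, lay at 0.15, at 4163 and 4065 normalized counts for WT and 226 to 290 in the mutants. After a gap followed Zscan4f at 0.72, Calcr at 0.77, Zscan4c at 0.78 and Zscan4b at 0.79. The Zscan4 genes, which mark a transient state of ESCs, are near-identical copies that may share reads, so they are uncertain as separate genes. Zscan4f was at 714 and 797 normalized counts for WT and 86.3 to 118 in the mutants.

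ATAC-seq, which marks open chromatin by the insertion of a transposase, was a measure that the choice of the genes did not use. The lists held 78536 and 67416 peaks in WT and 63588 to 69811 in the mutants, and those in the interval numbered 29 and 17 for WT. Mut18 had 12 and 16 of them and Mut43 12 and 15. Every mutant list had fewer than either WT list (two-sided exact permutation test, p = 0.0667). This is the smallest value that 2 against 4 libraries allow, so no such test here could reach 0.05. The permutation tests here treated the 6 lists as separate units, although each line gave 2 of them. Per 10000 peaks of a list, the peaks in the interval were 3.69 and 2.52 in WT and 1.75 to 2.29 in the mutants. In the 1 Mb on either side the lists held 98 peaks in WT replicate 2, more in WT replicate 1, and 85 to 105 in the mutants, with overlap between the groups (exact permutation p = 0.533). Sequencing depth was not used here, since the peak lists hold no read numbers, and an absent peak means only that no peak passed the authors' limit.

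The 33 regions are numbered here along the chromosome from the Dlk1 side. Of 16 with a peak in both WT lists, 5 had no peak in any mutant list, 10 had one in all 4, and 1 had one in a single mutant list. Over the genome 3.25% of all regions were of the first kind. There, 4.68% of the 62202 regions with a peak in both WT lists had none in any mutant list and 78.7% had one in all 4. In the 1 Mb on either side it was 5 of 91 and 67 of 91. No region of the interval had a peak in all mutant lists and in no WT list, which held for 0.733% of all regions. The 5 WT-only regions were regions 5, 8, 9, 13 and 16, and all lay between the start of Dlk1 and the start of Rian. Within that stretch, delimited after the values were seen, 5 of 6 regions with a peak in both WT lists were WT-only, against 0 of 10 in the rest of the interval. The count of 5 depended on the WT lists, since it rose to 13 of 29 when WT replicate 2 was left out and a peak in WT replicate 1 sufficed, as the count over the genome rose from 2913 to 9761. Without WT replicate 1 it was 6 of 17, and 4498 over the genome.

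**Figure D3:**
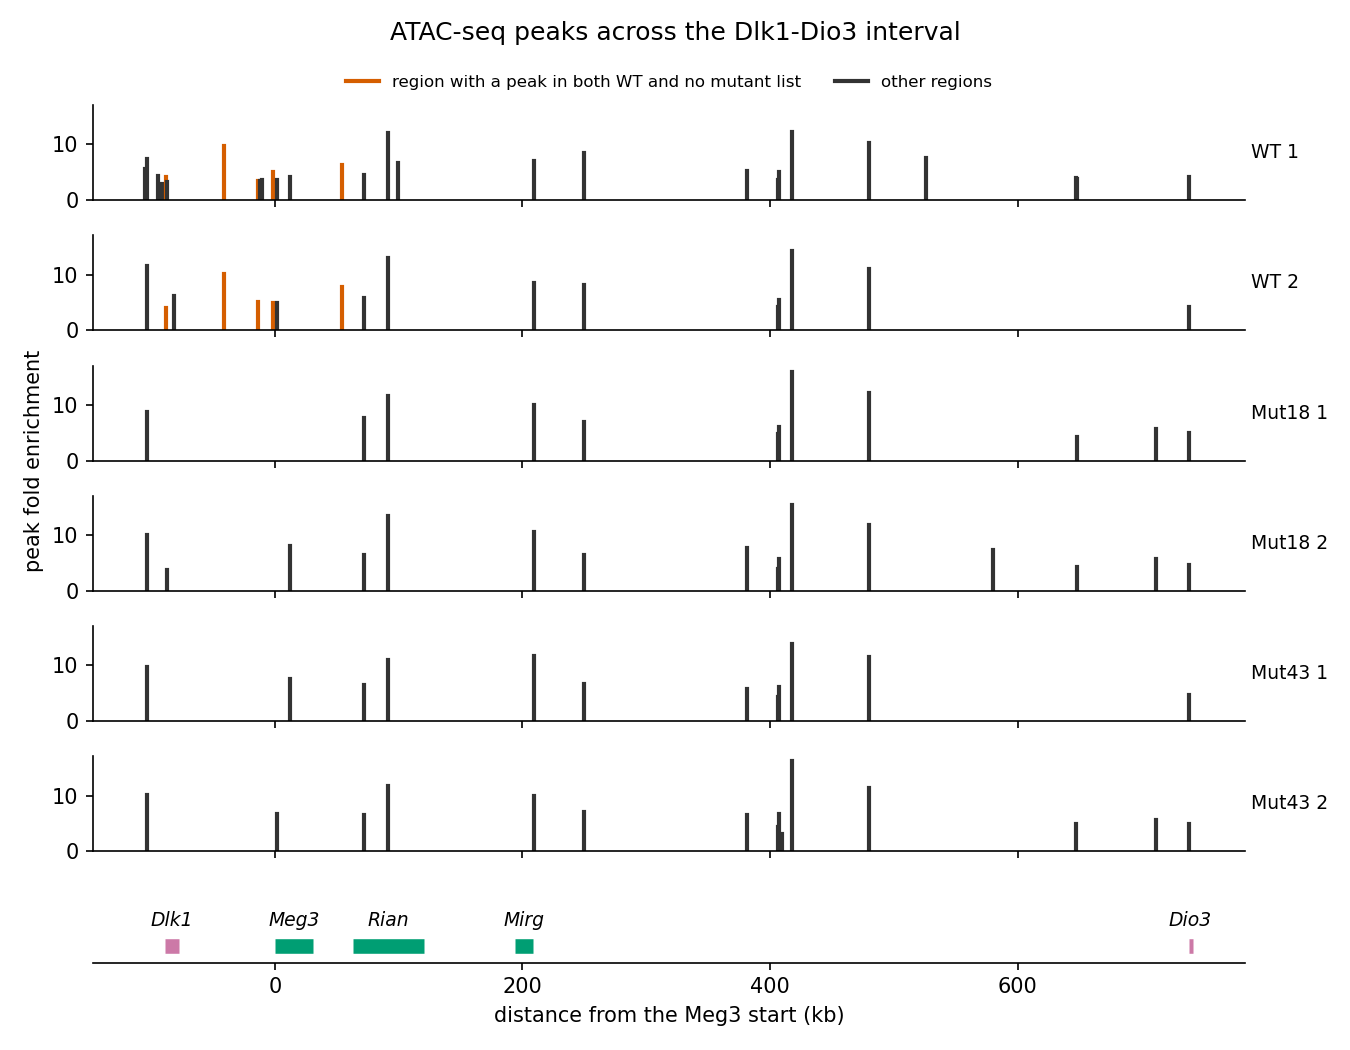
Fold enrichment of each ATAC-seq peak over the peak caller's background, in 6 panels for the 6 libraries, by distance of the region's centre from the Meg3 start in kb, with the genes drawn below. The 5 coloured regions, with a peak in both WT and no mutant list, lie between the start of Dlk1 and the start of Rian. The 10 regions with a peak in all lists lie outside that stretch, whose ends were set after the values were seen.

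Between Dlk1 and the Meg3 start the WT lists held 6 and 3 peaks and the 4 mutant lists none (exact permutation p = 0.0667). Region 8 was the strongest of the WT-only regions. It lay at chr12:109500071-109500546, 40450 bp before the Meg3 start, with fold enrichments of 9.64 and 10.2 in WT, in the 82.4th and 78.0th percentiles of their lists. Region 9, at chr12:109527512-109527686, lay 13310 bp before the Meg3 start, in the stretch that harbours the imprinting control region, and had fold enrichments of 3.50 and 5.10. In WT replicate 1 alone, 3 further peaks, regions 10 to 12, stood 10056 to 11758 bp before the start, with fold enrichments of 2.88 to 3.68. Region 13, at chr12:109539110-109539374 and 1622 bp before the start, had fold enrichments of 5.08 and 4.88.

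All 3 WT-only regions between Dlk1 and Meg3 lay in introns of Gm34081. Their sequences are shown as 300-base windows around their centres, together with the Meg3 promoter, because they hold the accessible sites that the mutant lists lack beside the gene that fell. All are from the plus strand of GRCm38.p6. Capitals mark TGCCGC, the hexamer that Zfp57 binds when methylated, and TGACGTCA, the cyclic AMP response element (CRE), on either strand (the hexamer reads GCGGCA on the other strand); these motifs do not overlap each other. Region 8 covers chr12:109500159-109500458, region 9 chr12:109527450-109527749, region 13 chr12:109539093-109539392 and the Meg3 promoter chr12:109540746-109541045.
Region 8: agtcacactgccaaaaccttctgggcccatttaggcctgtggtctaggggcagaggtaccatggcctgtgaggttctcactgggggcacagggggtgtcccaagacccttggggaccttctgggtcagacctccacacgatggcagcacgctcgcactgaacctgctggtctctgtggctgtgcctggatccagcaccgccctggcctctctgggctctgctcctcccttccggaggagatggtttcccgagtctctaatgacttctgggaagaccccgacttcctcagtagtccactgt
Region 9: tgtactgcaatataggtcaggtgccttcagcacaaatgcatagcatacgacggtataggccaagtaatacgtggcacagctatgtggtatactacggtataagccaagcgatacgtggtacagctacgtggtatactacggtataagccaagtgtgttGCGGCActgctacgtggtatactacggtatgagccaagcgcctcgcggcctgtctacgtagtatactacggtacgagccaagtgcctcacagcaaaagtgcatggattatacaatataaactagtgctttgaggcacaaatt
Region 13: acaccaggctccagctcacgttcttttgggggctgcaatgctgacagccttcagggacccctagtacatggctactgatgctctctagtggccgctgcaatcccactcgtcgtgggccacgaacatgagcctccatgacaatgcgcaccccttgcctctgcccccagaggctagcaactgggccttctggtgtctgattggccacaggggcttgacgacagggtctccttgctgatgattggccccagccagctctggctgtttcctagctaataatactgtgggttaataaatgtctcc
Meg3 promoter: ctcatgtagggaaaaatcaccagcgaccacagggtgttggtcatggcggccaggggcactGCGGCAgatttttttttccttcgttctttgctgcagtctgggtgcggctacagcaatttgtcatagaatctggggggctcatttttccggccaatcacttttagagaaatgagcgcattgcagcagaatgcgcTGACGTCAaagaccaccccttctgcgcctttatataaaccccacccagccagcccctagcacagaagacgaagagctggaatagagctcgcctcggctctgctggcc
Region 9 carried 17 CpG dinucleotides and 1 Zfp57 hexamer, and its commonest word of 10 bases occurred 4 times. Regions 8 and 13 carried 7 CpG each and neither motif. The Meg3 promoter carried 13 CpG, 1 Zfp57 hexamer and 1 CRE. Over all regions of the genome, 300-base windows held the hexamer in 9.76% and the CRE in 0.692% of cases, with a median of 6 CpG, and RefSeq promoters of the same length in 11.6 and 1.88%. In the interval, 7 of 33 region windows held the hexamer, of which 1 was WT-only and 5 had a peak in all lists. A match is a string of letters and was not tested for binding.

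At the Meg3 start itself, no list had a peak within 1000 bp, in WT or mutant. The nearest beyond region 13 was region 14, an intron of Meg3 at chr12:109542845-109543124, 1849 bp inside the gene, with fold enrichments of 3.61 and 4.84 in WT, 6.65 in Mut43 replicate 2 and no peak in the other 3 mutant lists. Region 15, deeper in Meg3, had a peak in WT replicate 1 (4.07), Mut18 replicate 2 (7.96) and Mut43 replicate 1 (7.62). Peaks over the body of Meg3 were thus present in 3 of the 4 mutant lists. Within 1000 bp of the starts of Rian, Mirg, AF357359 and Mir3072 there was no peak in any list.

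Of the paternally expressed genes, Dlk1 had a WT-only region and Dio3 did not. Region 5, at chr12:109453136-109453299, lay between both Dlk1 starts in a Dlk1 exon and was weak in WT, with fold enrichments of 4.21 and 4.01, at percentiles 9.51 and 3.10 of their lists. Its window held 33 CpG, in the 95.6th percentile of all regions. Region 6, 228 bp after the second Dlk1 start, had peaks in WT replicate 1 (3.29) and Mut18 replicate 2 (3.73). Region 33 covered the Dio3 start and had a peak in all 6 lists, with fold enrichments of 4.11 and 4.13 in WT and 4.58 to 4.89 in the mutants. The mutant values were all above the WT values (exact permutation p = 0.0667), while Dio3 reads stood at 43.1% of WT. Region 16, at chr12:109594754-109595324 in an Rtl1 exon that also holds the microRNA genes Mir3071 and Mir432, was WT-only with fold enrichments of 6.24 and 7.69.

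The 10 regions with a peak in all lists ranged from 3.59 to 14.3 in WT and from 4.00 to 16.3 in the mutants. They included regions 17 and 18 in introns of Rian, where RNA had fallen to 5.33% of WT. Region 17 had fold enrichments of 4.48 and 5.72 in WT and 6.41 to 7.68 in the mutants, and region 18 had 11.0 to 13.5 in the mutants, with both WT values inside this range. Region 20, 1785 bp beyond the Mir3072 start, had 7.09 and 8.41 in WT and 9.97 to 11.7 in the mutants. Region 26, the strongest, had 12.1 and 14.3 in WT and 13.8 to 16.3 in the mutants. In 5 of the 10 every mutant value was above both WT values and in 1, region 21, every one was below, against 14.5 and 7.52% of the 48984 regions with a peak in all lists. Fold enrichment is relative to each list's own background and its scale can shift between lists.

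Weak peaks are lost between lists more often than strong ones. Over the genome, regions with a peak in both WT lists were grouped by the lower of both −log10 q values, in limits set after the values were seen. Of those between 6 and 10, 24.3% had no mutant peak, of those from 10 to 15, 11.5%, from 15 to 25, 2.21%, and from 25 upwards 0.0666%, or 16 of 24008. In the interval 1 of 1, 2 of 4, 1 of 4 and 1 of 7 regions were WT-only in these groups. Region 8, with −log10 q values of 34.0 and 25.8, was thus 1 of the 16 WT-only regions in the strongest group. Its lower value stood just above the limit of 25, below which the share was 2.21%. The 0.0666% of the whole group is therefore not the share at the strength of region 8. Region 5, with 15.8 and 9.15, stood in the weakest group.

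**Figure D4:**
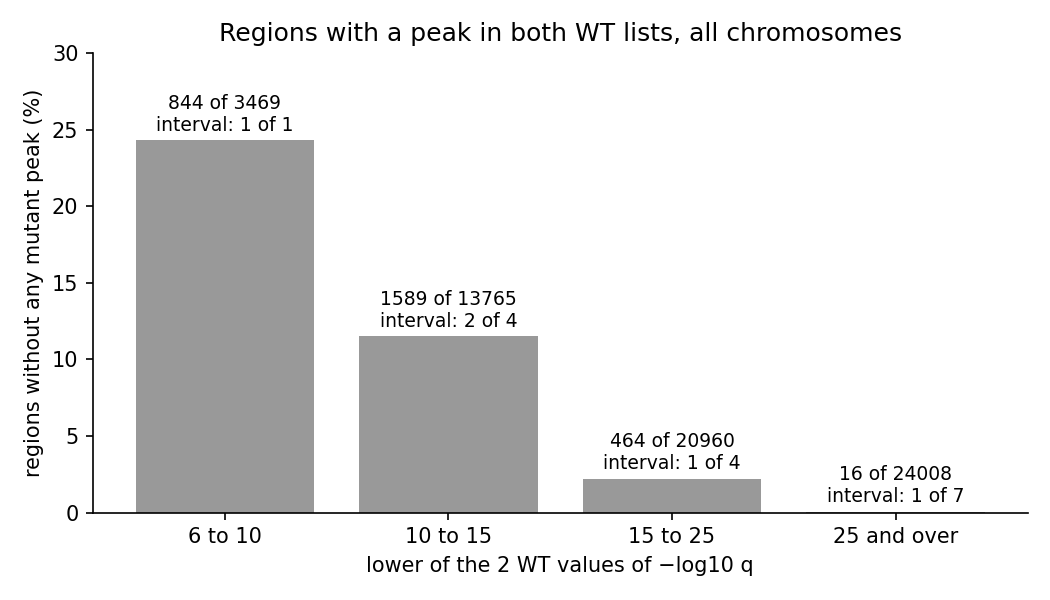
Share (%) of regions with a peak in both WT lists that had no peak in any mutant list, over all chromosomes, by the lower of the 2 WT values of −log10 q, with the numbers of regions above each bar. The share fell from 24.3% to 0.0666% with strength, and the interval had 1 WT-only region among its 7 strongest.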

How the data were processed

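mRNA-seq and ATAC-seq libraries were examined, 6 of each, and the other libraries of the series were not used here. Paired-end reads had been mapped to mm10, with STAR and Bowtie2 (2.3.4.2) named in the submitters' notes. The program and annotation used for counting were not given in the sources used here. The authors deposited raw read counts per gene, and MACS2 peak lists with the fold enrichment (a ratio to background) and the −log10 q-value of each peak, all above 6.

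Counts summed to 14992756 to 15143998 per library. They were filtered (filterByExpr, minimum count 10, minimum total 15), normalized by TMM, tested by edgeR 4.0.16 (R 4.3.3) quasi-likelihood and adjusted after Benjamini and Hochberg. Pooled differences between mutants and WT came from a fit that held all mutant libraries as 1 group. Values for a single clone, and for Mut18 over Mut43, came from a separate fit over the 3 lines. Calls needed an adjusted p under 0.05 and a change beyond 2-fold. In simulated counts over 14061 genes for mutants against WT, 94.5% of 200 genes changed 4-fold were recovered. Peaks overlapping by at least 1 bp were merged into regions. Sequences came from RefSeq (GRCm38.p6). The genes, lists and comparisons were chosen with earlier results of these data known. The text names all members, the nearest flanking genes, called genes and leading examples of each list, and the 5 genes most like Meg3. Replicate numbers did not pair the mRNA-seq libraries, with correlations of deviations from the line means of -0.066, 0.027 and -0.031. Alternative filters, normalizations, tests, peak limits and left-out libraries were tried.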

Additional observations from a re-analysis of the deposited data

Results flagged for a closer look

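One value stood apart from the other mutant libraries. In region 17, in an intron of Rian, the fold enrichment of the ATAC-seq peak was 7.68 in Mut18 replicate 1 and 6.41 to 6.56 in the other 3 mutant lists, a gap above Dixon's 95% critical value for 4 samples. Of 24 groups of 4 mutant libraries 1 was singled out in this way, and chance alone singles out about 1 in 20.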

How the results depend on the processing

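The log2 fold changes of the members kept their sign under every alternative run, with ranges of -4.31 to -4.18 for Meg3, -4.28 to -4.20 for Rian, -4.82 to -4.56 for Mirg, -4.39 to -4.11 for AF357359, -6.98 to -5.09 for Mir3072, -0.94 to -0.75 for Dlk1 and -1.39 to -1.06 for Dio3. Under the DESeq2 Wald test Dio3 had an adjusted p of 0.0505, against 0.00461 to 0.0399 under the other alternatives, and lost its call, so that 5 of 7 members were called. Genes called between Mut18 and Mut43 numbered 46, but 24 without a filter, 25 with DESeq2 and 8 to 70 when a library was left out. With a mean of at least 50 counts, fewer genes were tested, and those called were 166 higher and 332 lower in the mutants, 146 and 275 in Mut18, and 187 and 433 in Mut43. Without a fold limit 3308 were higher and 3441 lower in the mutants. Leaving out a library gave 413 to 462 higher and 713 to 961 lower. The WT-only regions numbered 5 to 13 when a list was left out, with 13 without WT replicate 2, and 4 under a stricter q limit or with equal numbers of peaks. A replicate block gave 465 genes higher and 791 lower, and 38 between the clones, and no call changed beyond 1.5 times. Replicate numbers do not pair the mRNA-seq libraries, and whether they pair the ATAC-seq lists was not tested. The difference of 9.25 peaks in the interval cannot change under such a block, because each replicate number holds 1 list of every line. Its equal value is therefore no evidence of stability. Most of that difference lay between the lists of replicate 1 and little between those of replicate 2. Low counts of Mir3072, Dio3 and Mirg, the number of WT libraries and peak lists without read numbers limit the precision.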
